A study of Mus musculus with 4 samples.

Results

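Elastic fibre genes were followed in endothelial and neighbouring cells of the mouse heart at 4 stages. The 10 genes were chosen by name, with earlier results of these data known, out of 27998 genes in the count tables. They encode the structural core of the fibre and the proteins that assemble, cross-link or accompany it. They are Eln (ENSMUSG00000029675), Fbln5 (ENSMUSG00000021186), Fbln2 (ENSMUSG00000064080), Fbn1 (ENSMUSG00000027204), Fbn2 (ENSMUSG00000024598), Lox (ENSMUSG00000024529), Mfap4 (ENSMUSG00000042436), Mfap5 (ENSMUSG00000030116), Emilin1 (ENSMUSG00000029163) and Mgp (ENSMUSG00000030218). All 10 were present in the tables and all are protein-coding genes in GENCODE M21 (GRCm38), with Eln on the minus strand at chr5:134702593-134747323 and Mgp on the minus strand at chr6:136872435-136875823.

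The study sorted CD31+/CD45- cells from hearts of C57Bl6J mice at embryonic day 12 (E12), embryonic day 15 (E15), postnatal day 2 (P2) and 8 weeks (Adult), and sequenced single cells with a droplet method that reads transcript 3′ ends. Each stage was 1 library, pooled from 37, 48, 21 and 6 animals. The animals carried no transgene or treatment. CD31 is the surface protein encoded by Pecam1 and marks endothelium, and CD45 marks blood leukocytes. The tissue was digested with Collagenase/Dispase at E12 and E15 and with Collagenase II as well at P2 and in the adult. Sorted cells were frozen. Once thawed, those of E12 and E15 passed a dead cell removal kit, and those of P2 and the adult were sorted again for live cells. Stage, digestion, this handling and library therefore cannot be told apart. With 1 library per stage there was no test of any difference. Levels are given as CPM, a gene's unique transcript counts (UMIs) as a share of all UMIs in the cells of a group, on the usual counts-per-million scale, with 95% exact Poisson intervals, and ratios of CPM carry 95% exact conditional intervals. All these intervals cover counting error only. Where a group had no UMI of a gene, the level said to be allowed is that of 3 counts, which is below the upper bound of the Poisson interval.

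Elastic fibres have a core of cross-linked elastin laid onto a scaffold of microfibrils, which are polymers of fibrillins with microfibril-associated proteins bound along them. Fibulin-5 tethers tropoelastin to microfibrils and to cell surface integrins, lysyl oxidase cross-links the elastin, and EMILIN-1 sits at the interface of elastin and microfibril. Matrix Gla protein binds to the same matrix and is known as an inhibitor of arterial calcification. Most elastin is laid down late in gestation and in early life, by smooth muscle cells and fibroblasts and, in the inner elastic layer of arteries, with a contribution from endothelium.

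Cells were placed in classes by counts of a few marker genes, none of which is an elastic fibre gene. A cell was endocardial if its UMIs of Npr3 and Tmem108 exceeded those of Fabp4, Cldn5 and Aplnr, and coronary if the latter 3 genes gave at least 2 UMIs and more than the former pair. It was large artery with at least 2 UMIs of Gkn3, Clu and Htra1, valve with at least 2 of Cldn11, Enpp2 and Aqp8, and non-endothelial with none of Pecam1, Cdh5 and Egfl7. The 5257, 5524, 5510 and 4003 cells kept at the 4 stages in turn held 103, 110, 560 and 407 large artery cells, 102, 1105, 4262 and 3863 coronary cells, 1552, 1951, 1052 and 65 endocardial cells, 17, 56, 393 and 17 valve cells and 2797, 1761, 13 and 119 non-endothelial cells. A cell could meet several rules. Of the non-endothelial cells, 542 at E12 and 516 at E15 also met the endocardial rule. The coronary rule was met by 11 of them at P2 and 90 in the adult. Below, cells without endothelial transcripts are those without a UMI of Pecam1, Cdh5 and Egfl7, and they can hold other endothelial transcripts. The median depth was 1208, 980, 4433 and 1474 UMIs per cell. Cells at P2 thus met rules that ask for UMIs more readily, and the non-endothelial rule, which asks for none, less readily. Between 19 and 53 cell barcodes were shared by any pair of libraries, at most 0.962% of the smaller library.

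The large artery label held only in part before birth. At E12, 66 of the 103 large artery cells had no UMI of Pecam1, Cdh5 or Egfl7, and at E15 63 of 110 had none, against 2 of 560 at P2 and 6 of 407 in the adult. In those E12 and E15 cells Gja5, an arterial gap junction gene, had no UMI, which allows up to 27.1 and 32.9 CPM, and Col1a1, a collagen gene of fibroblasts, was at 523 CPM and 1350 CPM. Large artery cells with an endothelial UMI held Gja5 at 113, 67.0, 173 and 196 CPM over the 4 stages. Values for these 37, 47, 558 and 401 cells are therefore given beside those of the whole class, a split chosen after the cells were seen. The E12 and E15 groups with an endothelial UMI held 53187 and 59679 UMIs in all. Their Gja5 levels thus rest on few UMIs, and the Gja5 contrast before birth is of 1 gene at low counts. At P2, 425 of the 560 large artery cells also met the coronary rule, and in the adult 349 of 407 did. In the adult 35 of the 65 endocardial cells also met the large artery rule.

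Promoters of members that differed in their pattern are shown here: Fbln5 and Fbln2 had adult large artery levels above that of Eln, and Emilin1, taken over the whole class, had no 2-fold excess in large artery cells. The sequences are the 250 bases before the RefSeq transcript start, read 5′ to 3′ on the gene's strand (GRCm38.p6), and 4 of the 10 members had an entry. Capitals mark matches on either strand to GGGCGG, the GC box, or TGGGAA, the core bound by RBPJ, the nuclear partner of NOTCH.
Fbln5, chr12:101819120-101819369, minus strand: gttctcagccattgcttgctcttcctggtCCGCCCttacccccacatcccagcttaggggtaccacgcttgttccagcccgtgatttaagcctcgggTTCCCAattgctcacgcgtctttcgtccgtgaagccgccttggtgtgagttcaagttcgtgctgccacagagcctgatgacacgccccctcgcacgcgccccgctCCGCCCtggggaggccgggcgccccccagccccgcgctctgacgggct
Fbln2, chr6:91212514-91212763, plus strand: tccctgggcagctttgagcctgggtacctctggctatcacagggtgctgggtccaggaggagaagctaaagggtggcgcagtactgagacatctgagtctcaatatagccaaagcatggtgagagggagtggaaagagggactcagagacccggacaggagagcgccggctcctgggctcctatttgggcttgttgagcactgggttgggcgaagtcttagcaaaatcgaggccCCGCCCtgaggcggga
Emilin1, chr5:30913536-30913785, plus strand: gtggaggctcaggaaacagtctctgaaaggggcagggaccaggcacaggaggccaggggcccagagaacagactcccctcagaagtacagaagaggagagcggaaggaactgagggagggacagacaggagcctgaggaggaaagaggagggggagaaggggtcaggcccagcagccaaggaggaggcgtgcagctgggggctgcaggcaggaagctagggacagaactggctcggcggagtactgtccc
The Fbln5 stretch held the GC box at 2 places and the RBPJ core at 1, the Fbln2 stretch the GC box at 1, and the Emilin1 stretch neither. Of 32851 such stretches in the RefSeq table, 32.7% held the GC box and 21.6% the RBPJ core. TATAAA, the TATA box, and CACGTG, the E-box, were found in 12.4% and 6.02% of all stretches and in none of these 3. A second Fbln5 start in the table (chr12:101818485-101818734) held none of the 4 motifs, and the Fbn1 stretch, which is not printed, held the GC box at 1 place and the RBPJ core at 1.

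Elastin itself, the polymer of the fibre core, was higher in large artery cells than in the other 4 classes at E12, E15 and P2. In the adult the large artery level was lower than at any other stage, and its counting interval overlapped those of endocardial and non-endothelial cells. In the whole class Eln was at 1200 CPM at E12 (interval 1039 to 1380), 5379 CPM at E15 (5015 to 5762), 4828 CPM at P2 (4749 to 4908) and, among adult cells, 328 CPM (292 to 367). In large artery cells with an endothelial UMI it was at 1974, 10406, 4845 and 323 CPM, and in those without one at 829 CPM at E12 and 2086 CPM at E15. The embryonic cells with endothelial transcripts thus held more Eln per UMI than the rest of their class. The 6 adult cells without an endothelial UMI held 568 CPM from 11 UMIs (interval 283 to 1016).

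Coronary cells outside the large artery class held Eln at 360, 279, 224 and 45.5 CPM over the 4 stages. Large artery cells exceeded them 3.33-fold at E12 (interval 2.53 to 4.44), 19.3-fold at E15 (17.0 to 21.9), 21.6-fold at P2 (20.9 to 22.4) and, among adult cells, 7.21-fold (6.08 to 8.54). Among cells with an endothelial UMI the ratios were 5.91, 41.8, 21.7 and 7.80. An excess of the large artery class over these coronary cells was therefore present at all 4 stages in these libraries, while both groups were at their lowest level in the adult. At E12 the excess was not particular to cells that met the rule. The 393 cells with 1 large artery marker UMI, just outside it, held Eln at 984 CPM, against 1037 CPM in the 69 with exactly 2. At E15 the values were 2225 and 4209 CPM. With the large artery cells included, the coronary class read 427, 506, 786 and 77.8 CPM, and its 5% of cells with most Eln UMIs held 80.5% of its Eln UMIs at P2.

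In the endocardium, the lining of the heart chambers, Eln was at 228 CPM at E12, 220 CPM at E15, 978 CPM at P2 and 317 CPM among adult cells. Valve cells held no Eln UMI in 17 cells at E12, which allows up to 136 CPM, and then 429, 1107 and 161 CPM. The endocardial increase from E15 to P2 was 4.44-fold (interval 4.03 to 4.90). In endocardial cells with an endothelial UMI the levels were 95.1, 155, 978 and 318 CPM.

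Cells without endothelial transcripts also held Eln, at 795, 905, 224 and 309 CPM. Those carrying mural markers, the genes of smooth muscle and pericytes, were at 2570 CPM at E12 (111 cells) and 5670 CPM at E15 (20 cells), and at 74.9 CPM in the adult (23 cells). Those carrying fibroblast markers were at 935 CPM (742 cells), 1209.6 CPM (488 cells), 352 CPM (5 cells) and 731 CPM (27 cells). At P2 the 5 mural-marker cells, with 18242 UMIs in all, held no Eln UMI, where large artery cells were at 4828 CPM. Mural-marker cells thus held much Eln before birth and little in the adult, but were unlike large artery cells at P2. The adult fibroblast-marker cells held more Eln than the adult large artery cells. Fewer than 50 cells lie behind the E15, P2 and adult mural values and the P2 and adult fibroblast values.

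**Figure D1:**
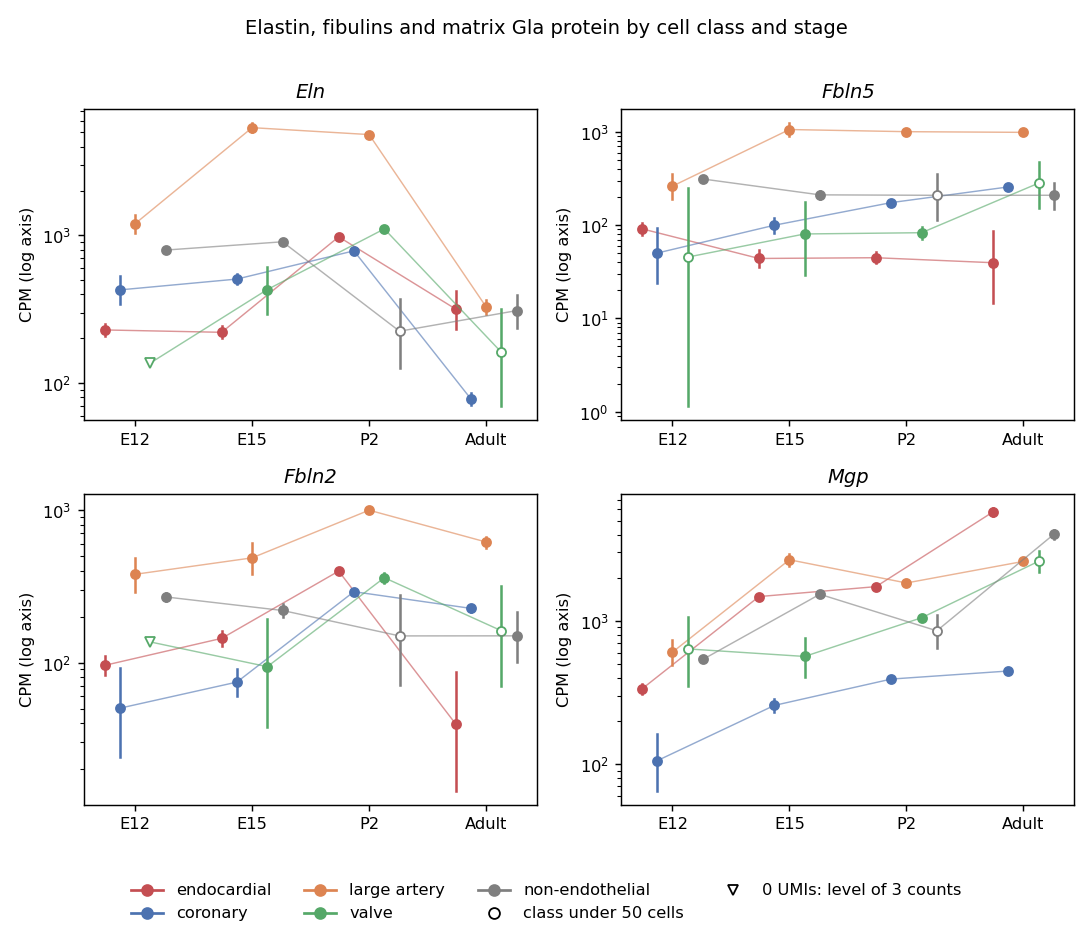
Levels in CPM on a log axis of Eln, Fbln5, Fbln2 and Mgp at each stage, one colour per cell class; points are sums over cells, bars 95% exact Poisson intervals, open circles classes under 50 cells and triangles the level of 3 counts where no UMI was seen. Large artery Eln falls from 4828 CPM at P2 to 328 CPM in the adult, while Fbln5 stays at 1006 and 989 CPM and Mgp at 1835 and 2598 CPM.

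RNA set free from broken cells can give such counts, and 2 groups of barcodes were read with this in mind. Neither gives the part of free RNA in a kept cell. Cells of any class with immune or erythroid markers held Eln at 81.2, 37.3, 277 and 0 CPM (75, 43, 7 and 15 cells, median depth 1978, 1249, 6236 and 2188 UMIs). Of these cells 29.3%, 30.2%, 100% and 66.7% had an endothelial UMI, so they are not free of endothelial transcripts. At E12, barcodes under the cutoff of 452 UMIs held Eln at 768 CPM and all members together at 2719 CPM, above the 314 CPM of Eln in endothelial cells of that library. Drawn down to 500 UMIs a cell, 32.4% of large artery cells at E12 had an Eln UMI, 47.7% at E15, 47.1% at P2 and 10.8% among adult cells, against 4%, 2.44%, 0% and 0% of the blood-marker cells and 16.7%, 5.20%, 11.5% and 2.69% of coronary cells. Without the draw the large artery shares were 46.6%, 62.7%, 78.0% and 31.4%. Apart from large artery and non-endothelial cells, each class at E12 lay below the 768 CPM of the low-count barcodes. That value is a share of the UMIs in those barcodes, so the order does not tell how much of a class level is free RNA. On either side of the cutoff, the 171 barcodes just inside held the members together at 3642 CPM and the 170 just outside at 4043 CPM.

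Fibulin-5, the tether of elastin to microfibrils and cells, was also highest in large artery cells from E15 on, and its adult level there was close to that at P2. In large artery cells Fbln5 was at 262 CPM at E12 (interval 190 to 353), 1061 CPM at E15 (903 to 1239), 1006 CPM at P2 (970 to 1043) and, among adult cells, 989 CPM (927 to 1055). The adult level was 0.983 times that at P2 (interval 0.912 to 1.06), where Eln was 14.7-fold lower (13.2 to 16.6). In cells with an endothelial UMI Fbln5 was at 357, 1977, 1007 and 1009 CPM, so that its step from E15 to P2 was 1.96-fold down (interval 1.62 to 2.36), and Eln was 15.02-fold lower in the adult than at P2.

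That contrast moved with the way large artery cells were drawn. When classes were called from 500 UMIs of each cell, 88 P2 cells and 126 adult cells were large artery. Eln was then at 11946 and 606 CPM and Fbln5 at 2808 and 1197 CPM, so both fell and Eln by more. When cells of several classes were left out, 33 and 20 cells remained, and Fbln5 read 1075 CPM at P2 and 42.6 CPM in the adult from 2 UMIs, with Eln at 5595 and 298 CPM. Just inside the rule, P2 cells with exactly 2 marker UMIs held Eln at 1721 CPM, and just outside, those with 1 held 657 CPM, while the adult values were 235 and 106 CPM. Fbln5 in the same cells was at 191 and 92.3 CPM at P2 and at 594 and 407 CPM in the adult. Before birth, cells with 2 and with 1 marker UMIs held Fbln5 at 273 and 263 CPM at E12 and at 1013 and 439 CPM at E15.

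Coronary cells outside the large artery class held Fbln5 at 40.6, 56.9, 51.4 and 131 CPM. The large artery ratio was 6.46 at E12, 18.7 at E15, 19.6 at P2 and 7.56 among adult cells, and the lower bound of each interval was above 3-fold. Within the coronary cells outside the large artery class, those with at least 2 UMIs of the arterial genes Gja5, Gja4 and Sema3g held Fbln5 at 222 CPM against 34.3 CPM in the others at P2, a ratio of 6.48 (interval 5.67 to 7.40), and at 957 against 92.2 CPM in the adult, a ratio of 10.4 (8.86 to 12.1). Their Eln ratio was 2.66 (2.46 to 2.87) in P2 cells and 3.27 (2.21 to 4.71) in adult cells. The 133 adult cells with arterial markers thus held Fbln5 at a level near that of the adult large artery class. At E15 the 44 cells with arterial markers held it at 35.6 CPM from 2 UMIs against 57.8 CPM in the others, a ratio of 0.615 (0.0731 to 2.31), and at E12 there were 3 such cells.

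Endocardial Fbln5 was low, at 91.4, 43.9, 44.8 and 39.6 CPM, the last from 6 UMIs. Coronary cells as a whole exceeded it 2.27-fold in E15 cells (1.72 to 3.001), 3.90-fold in P2 cells (3.41 to 4.49) and, among adult cells, 6.50-fold (2.98 to 17.7). Against coronary cells outside the large artery class the endocardial ratio was 2.25 in E12 cells (1.12 to 5.29), 0.773 in E15 cells (0.562 to 1.07), 0.871 in P2 cells (0.749 to 1.01) and, among adult cells, 0.302 (0.111 to 0.661). The coronary excess at E15 and P2 was thus under 2-fold once large artery cells were set aside, and at E12 the endocardial level was the higher. Among cells with an endothelial UMI that E12 order did not hold, with endocardial cells at 36.4 CPM. Coronary cells as a whole were then at 52.5 CPM, a ratio of 0.693 (0.347 to 1.54), and those outside the large artery class at 42.4 CPM. At E12 mural-marker cells held Fbln5 at 1086 CPM and fibroblast-marker cells at 418 CPM, both above the 262 CPM of large artery cells. In blood-marker cells Fbln5 had no UMI at E12, E15 and P2 and 2 UMIs in the adult.

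**Figure D2:**
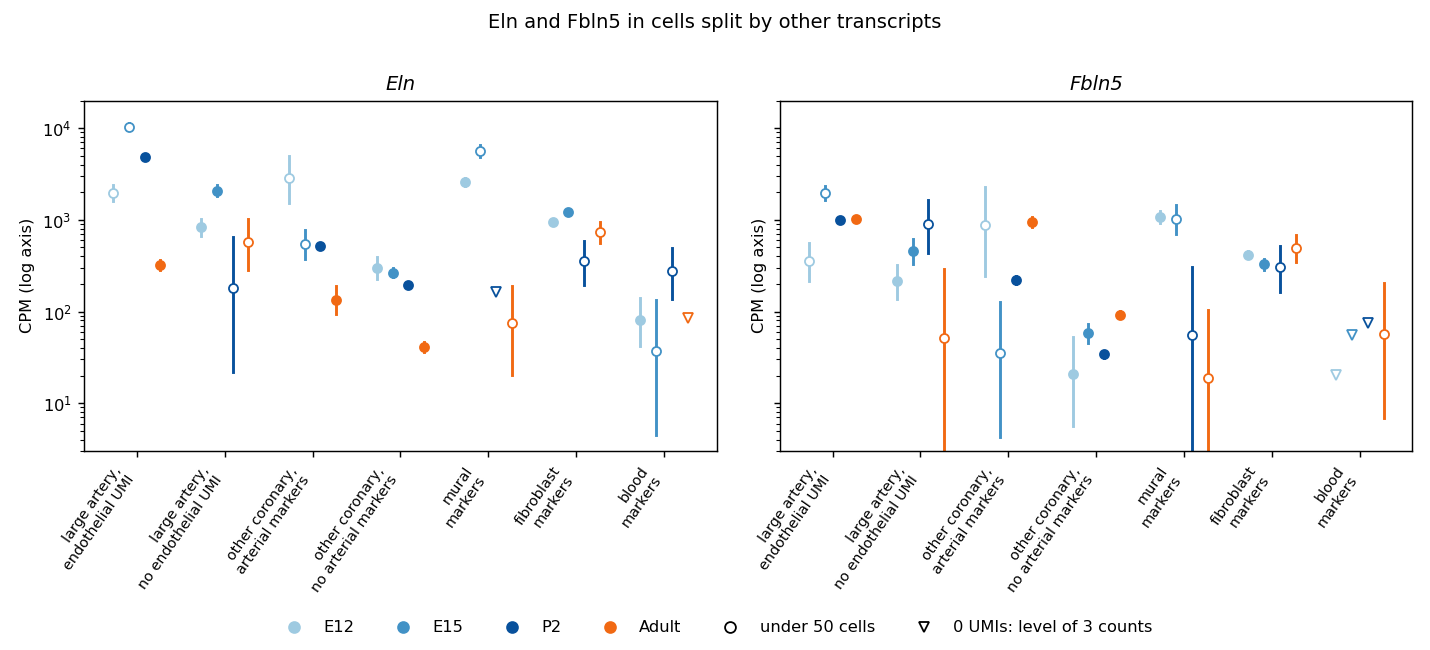
Eln and Fbln5 in CPM on a log axis that starts at 3 CPM, in large artery cells with and without an endothelial UMI, other coronary cells with and without arterial markers, non-endothelial cells with mural or fibroblast markers, and cells with blood markers; colours are stages, bars 95% exact Poisson intervals, open circles groups under 50 cells and triangles the level of 3 counts. Eln in E15 large artery cells with an endothelial UMI reaches 10406 CPM, and adult coronary cells with arterial markers hold Fbln5 at 957 CPM and Eln at 135 CPM.

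Fibulin-2, which binds tropoelastin and basement membrane proteins, was highest in large artery cells at every stage, at 378, 484, 993 and 615 CPM. The coronary cells outside the class held 50.7, 64.6, 185 and 157 CPM. The ratios were 7.45, 7.49, 5.36 and 3.91, with lower bounds of 3.79, 5.39, 5.10 and 3.52. Fbln2 rose from E15 to P2 in all 3 endothelial classes, 2.05-fold in large artery cells (interval 1.63 to 2.62), 3.91-fold in coronary cells (3.20 to 4.82) and 2.75-fold in endocardial cells (2.44 to 3.12). In large artery cells with an endothelial UMI the step was 1.38-fold (1.02 to 1.91), and in coronary cells outside the large artery class 2.87-fold (2.31 to 3.61). In the adult the endocardial level was 39.6 CPM from 6 UMIs, 10.0-fold below P2 (4.59 to 27.3), whereas the large artery level was 0.619 times that at P2.

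Lysyl oxidase, the cross-linking enzyme, was a low transcript that stood higher in large artery than in other coronary cells, and of the 5 classes it was highest there at E15 and P2 but not at E12 or in the adult. Lox was at 42.7 CPM at E12 from 7 UMIs, 139 CPM at E15, 110 CPM at P2 and 34.4 CPM in the adult. The other coronary cells held 2, 7, 67 and 17 Lox UMIs, and the large artery ratio was 25.5 at E15 (interval 10.5 to 71.1), 30.1 at P2 (23.0 to 39.7) and, among adult cells, 11.4 (6.14 to 21.9). From P2 to the adult Lox fell 3.20-fold in large artery cells (2.22 to 4.76) and 2.61-fold in coronary cells (1.89 to 3.69), the same direction as Eln and a smaller step. In coronary cells outside the large artery class it was 3.66 CPM at P2 and 3.02 CPM in the adult, a ratio of 0.825 (0.454 to 1.42). At E12 the non-endothelial cells held 55.2 CPM and the valve cells 136 CPM from 3 UMIs, and in the adult the endocardial cells held 39.6 CPM from 6 UMIs and the non-endothelial cells 34.9 CPM.

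The fibrillins, the backbone of microfibrils, took different courses. Fbn2, the fibrillin of embryonic tissue, stood in large artery cells at 433 CPM at E12, 312 CPM at E15, 25.0 CPM at P2 and 3.22 CPM in the adult, where 3 UMIs were counted. Fbn2 went from 50.2 to 25.3, 8.55 and 0.468 CPM in coronary cells and from 136 to 57.0, 11.2 and 0 CPM in endocardial cells. Its level was thus lower at each later stage in large artery and coronary cells and, up to P2, in endocardial cells. From E12 to E15 the interval held no difference in large artery cells, 1.39-fold lower (0.947 to 2.05), and in coronary cells, 1.98-fold lower (0.872 to 4.12). In coronary cells with an endothelial UMI that step was 2.83-fold (1.19 to 6.27). The 0 adult endocardial UMIs allow up to 19.8 CPM, which is not below the P2 level. The E15 to P2 step was 12.5-fold (interval 8.47 to 18.2), 2.96-fold (1.98 to 4.32) and 5.07-fold (3.66 to 7.10). In large artery cells with an endothelial UMI it was 5.50-fold (2.29 to 11.4), from 72 UMIs at P2 and 8 at E15.

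Fbn1, the fibrillin that persists in adult tissue, moved by smaller steps. It was at 183, 133, 137 and 74.1 CPM in large artery cells, at 80.4, 46.0, 57.7 and 39.7 CPM in coronary cells and at 152, 120.2, 102 and 46.2 CPM in endocardial cells. No stage step of Fbn1 reached 2-fold other than the adult endocardial one, 2.21-fold lower from 7 UMIs (interval 1.06 to 5.52). Valve cells kept Fbn2 longer than the endocardium: at P2 they held 80.7 CPM against a 10.3-fold lower level in the endocardial cells outside the valve class (7.08 to 15.5), and at E15 the ratio was 4.32 (2.47 to 7.13).

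Mfap4, a microfibril-associated protein of the fibrinogen family, was higher in non-endothelial than in endothelial cells at each stage. Non-endothelial cells held it at 221, 451, 269 and 992 CPM, and endothelial cells at ratios 3.82-fold, 10.6-fold, 181-fold and 40.1-fold lower. At P2 the 558 large artery cells with an endothelial UMI had no Mfap4 UMI, which allows up to 1.02 CPM, and all 16 Mfap4 UMIs of the class came from the 2 cells without one. The whole-class value of 670 CPM at E15 split into 168 CPM in cells with an endothelial UMI and 999 CPM in those without, and in the adult the 62.3 CPM split into 19.7 CPM and 2065 CPM. Large artery cells without endothelial transcripts thus held most Mfap4 UMIs of the class at these 3 stages. Those of E15 also carried Col1a1, as given above.

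Mfap5, the second microfibril-associated glycoprotein, was seen in endothelial classes as well, and most at P2. Endocardial cells held 19.4 CPM at E12, 103 CPM at E15, 399 CPM at P2 and 39.6 CPM in the adult. Large artery cells held 18.3, 113, 295 and 50.5 CPM, and coronary cells 35.2, 23.0, 123 and 24.0 CPM. The endocardial ratio over coronary cells was 4.49 at E15 (interval 3.05 to 6.82) and 3.24 at P2 (3.06 to 3.44). In the adult Mfap5 was 5.83-fold below P2 in large artery cells (4.35 to 8.00) and 5.13-fold below in coronary cells (4.36 to 6.07), while adult fibroblast-marker cells held 1853 CPM.

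Emilin1, the glycoprotein at the elastin-microfibril interface, was under 2-fold apart between the whole large artery class and other coronary cells and was at least 2-fold higher in endocardial than in coronary cells in the E15 and adult libraries. It was at 114, 120.2, 218 and 185 CPM in endocardial cells, 122, 92.9, 151 and 82.7 CPM in large artery cells and 70.3, 56.0, 111 and 47.4 CPM in coronary cells. The endocardial ratio over coronary cells was 1.62 at E12 (interval 0.945 to 3.005), 2.15 at E15 (1.65 to 2.83), 1.97 at P2 (1.83 to 2.12) and, among adult cells, 3.90 (2.55 to 5.75). Among cells with an endothelial UMI the E15 ratio was 1.93 (1.44 to 2.60) and the adult one 3.83. The ratio of the whole large artery class over other coronary cells lay between 1.38 and 1.89. Among cells with an endothelial UMI that ratio was 2.73 at E12 (1.07 to 6.73, from 23 UMIs), 2.33 at E15 (0.966 to 4.88), 1.397 at P2 (1.26 to 1.55) and, among adult cells, 1.87 (1.42 to 2.44).

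**Figure D3:**
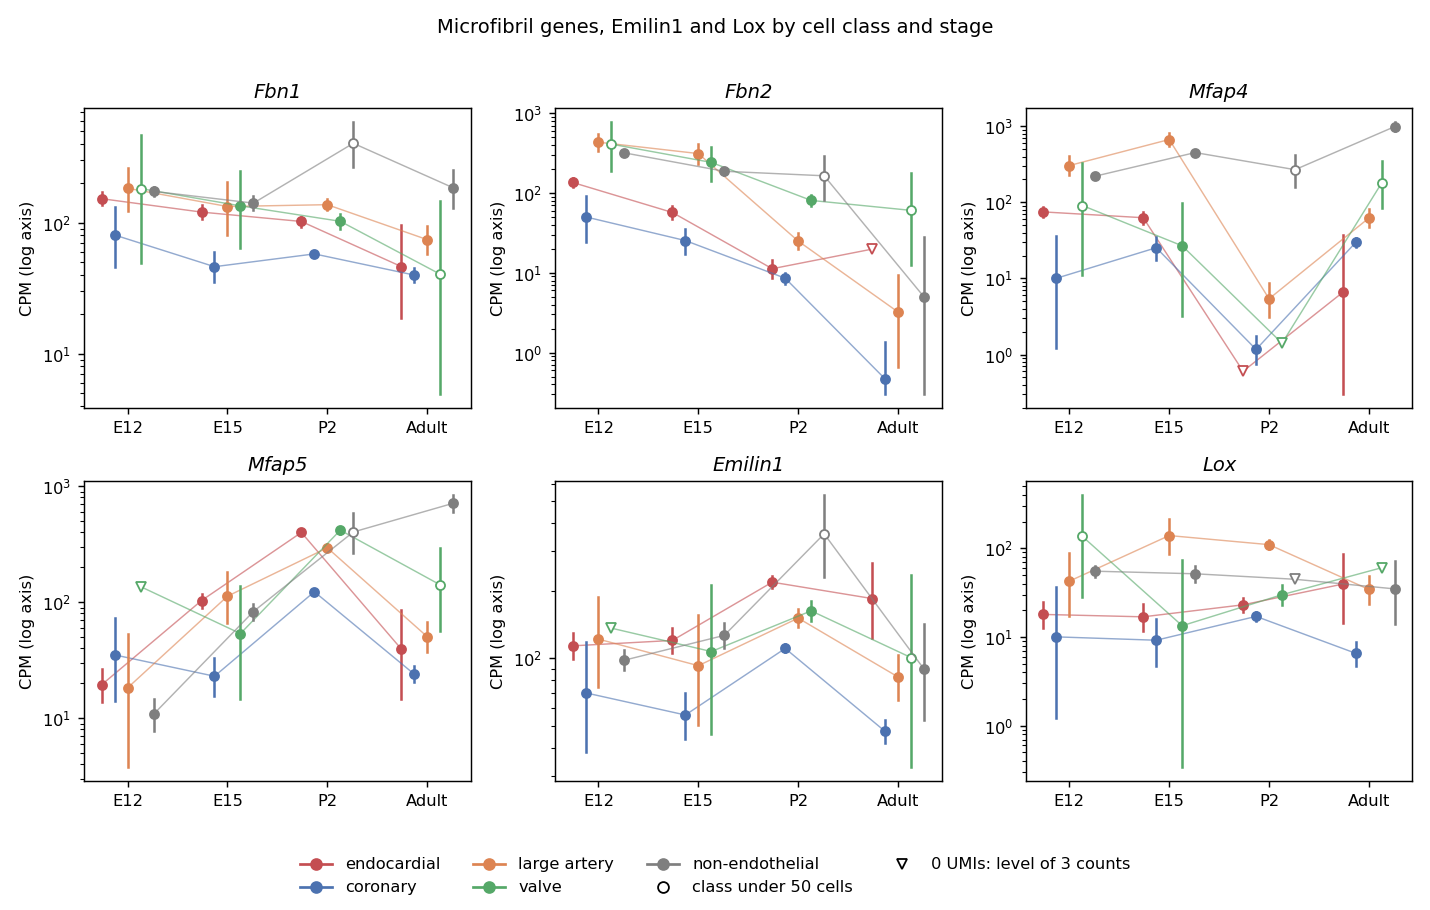
Levels in CPM on a log axis of Fbn1, Fbn2, Mfap4, Mfap5, Emilin1 and Lox at each stage, one colour per cell class; bars are 95% exact Poisson intervals, open circles classes under 50 cells and triangles the level of 3 counts where no UMI was seen. Fbn2 steps down in large artery cells from 433 to 3.22 CPM, and Mfap4 at P2 is near 0 in each endothelial class but 269 CPM in the 13 non-endothelial cells.

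Matrix Gla protein, the calcification inhibitor, was the most abundant member in each of the 5 classes in the adult. Mgp was at 334, 1475, 1731 and 5752 CPM in endocardial cells, 603, 2666, 1835 and 2598 CPM in large artery cells and 105, 256, 392 and 446 CPM in coronary cells. The endocardial ratio over coronary cells was 3.17 at E12 (interval 2.06 to 5.16), 5.76 at E15 (5.14 to 6.46), 4.42 at P2 (4.29 to 4.56) and, among adult cells, 12.9 (11.9 to 13.9). Of the 65 adult endocardial cells, 35 also met the large artery rule. Drawn to 500 UMIs a cell, Mgp was seen in 13.3%, 46.3%, 53.1% and 89.2% of endocardial cells and in 2.67%, 2.44%, 0% and 6.67% of blood-marker cells.

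In valve cells Mgp was below the other endocardial cells from E15 on, the other way from Fbn2 at E15 and P2. Valve cells held 564 CPM at E15 and 1049.9 CPM at P2. The endocardial cells outside the valve class were 2.62-fold higher at E15 (interval 1.94 to 3.65), 1.69-fold higher at P2 (1.61 to 1.77) and, among adult cells, 2.26-fold higher (1.88 to 2.75). At E12 the 17 valve cells were the higher, at 636 against 335 CPM, a ratio of 1.90 (1.03 to 3.21). Adult fibroblast-marker cells held Mgp at 9133 CPM. From P2 to the adult Mgp went up 1.42-fold in large artery cells (1.35 to 1.49) and 3.32-fold in endocardial cells (3.10 to 3.56), the opposite direction from Eln in both classes.

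Across the 10 members, large artery cells were compared with the other coronary cells wherever a gene had at least 20 UMIs in both groups together, and a member was counted as higher when its CPM was at least 2-fold higher. At E12, 7 of the 8 members compared were higher (Emilin1 was not, and Lox and Mfap5 had too few UMIs), against 12.8% of all genes compared. At E15, 9 of 10 were higher against 12.6%, with Emilin1 the exception. At P2 it was 9 of 10 against 9.4%, again without Emilin1, and Mfap4 rested on the 2 cells named above. In the adult 7 of 9 were higher against 8.32%, with Emilin1 at 1.89 and Mfap4 at 1.85 and Fbn2 not compared. The median log2 ratio of the members compared was 2.71, 3.78, 2.75 and 1.97 against 0.02, 0.00, 0.09 and 0.08 over all genes compared. Members and classes were chosen with earlier results of these data known, so these counts describe the members and are no independent test.

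**Figure D4:**
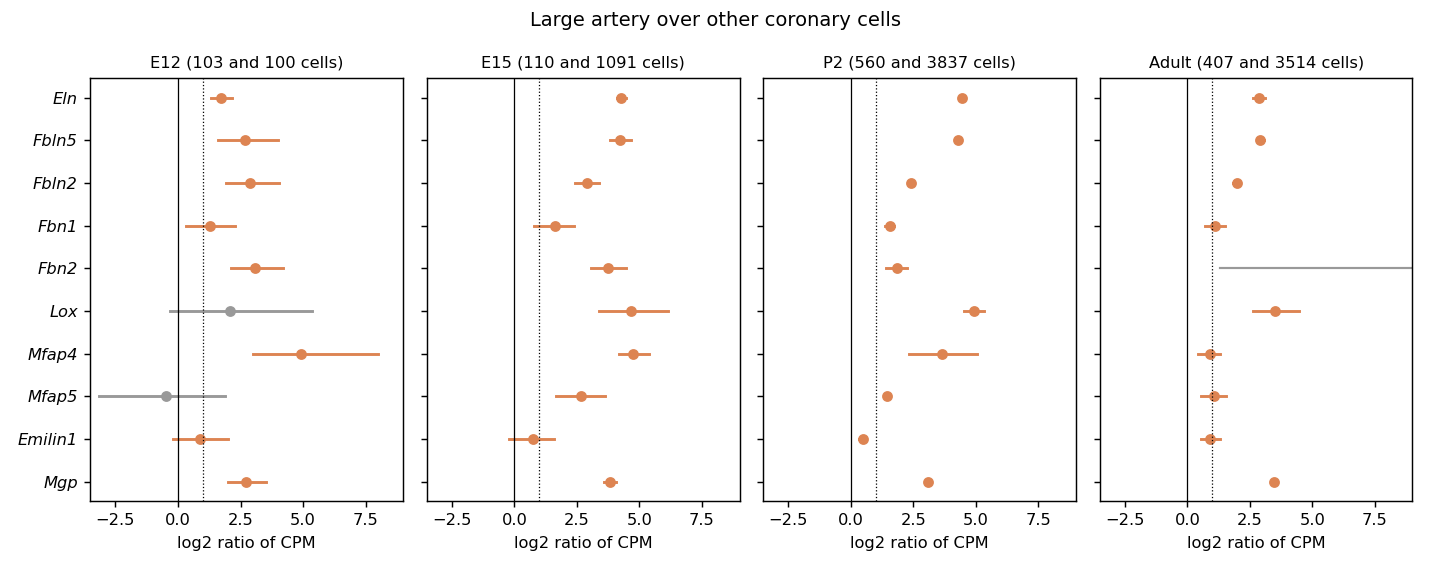
Log2 ratio of CPM, large artery over other coronary cells, for each member at each stage, with 95% exact conditional intervals; the solid line marks no difference, the dotted line 2-fold, and grey members had under 20 UMIs in both groups together. Eln, Fbln5, Fbln2 and Mgp lie beyond the dotted line at all 4 stages and Emilin1, in these whole classes, at none.

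Endocardial cells were at least 2-fold above coronary cells for 3 of 10 members at E12 (Mgp, Mfap4 and Fbn2) against 17.8% of genes, for 6 of 10 at E15 (Emilin1, Fbn1, Fbn2, Mfap4, Mfap5 and Mgp) against 13.9%, for 2 of 10 at P2 (Mgp and Mfap5) against 10.6% and for 4 of 9 in the adult (Eln, Emilin1, Lox and Mgp) against 14.7%. Mgp was the member on this list at all 4 stages. In the other direction, endocardial cells were at least 2-fold lower for 0 members at E12 against 5.81% of genes, for 2 at E15 (Eln and Fbln5) against 6.04%, for 1 at P2 (Fbln5) against 11.3% and for 3 in the adult (Fbln5, Fbln2 and Mfap4) against 12%. The adult Mfap4 value rests on 1 endocardial UMI, a ratio of 0.220 with an interval that holds no difference (0.00555 to 1.24). Coronary cells here include large artery cells that met both rules. Without those the count of higher members, summed over stages, was 24 in place of 15, with no share over all genes at hand for that setting. Fbln5 and Fbn1 joined the list at E12 and Fbln2 and Lox at E15. At P2 Eln, Fbln2 (2.14-fold), Fbn1 (2.17-fold), Lox (6.31-fold) and Emilin1 (2.00-fold) joined Mgp and Mfap5. Endocardial Eln was then 0.790 times the coronary level at E15 (interval 0.686 to 0.910) and 4.37 times at P2 (4.19 to 4.56). Among cells with an endothelial UMI the summed count of higher members was 13. Endocardial Eln was there 4.25-fold below coronary cells as a whole at E12 (3.16 to 5.68) and 3.16-fold below at E15 (2.72 to 3.69). In the same cells Fbn2 at E12 was at 1.70, and Mfap4 and Emilin1 at E15 at 1.44 and 1.93, all under 2-fold. Mfap4 at E12 was at 3.11 (0.812 to 26.5). Valve cells were at least 2-fold above the other endocardial cells for 2 of 10 members at E12 (Fbn2 and Lox) against 17.3%, for 1 of 10 at E15 and 1 of 9 at P2 (Fbn2 in both) against 10.3% and 4.56%, and for 1 of 4 in the adult (Fbln5) against 7.34%. They were at least 2-fold lower for 1 at E12 (Fbln5) against 2.75%, for 2 at E15 (Mfap4 and Mgp) against 8.4%, for 0 at P2 against 2.42% and for 1 in the adult (Mgp) against 14.8%. The E12 Fbln5 value rests on 1 UMI in valve cells, a ratio of 0.495 (interval 0.0125 to 2.79). Among cells with an endothelial UMI it was 2.11 (0.0523 to 12.3), so its direction is not settled. Under the same restriction at E15, valve cells were higher for Eln, 3.26-fold (2.14 to 4.81), as well as Fbn2, 6.51-fold (3.36 to 11.8). Fbln5 was also higher, 3.43-fold (1.06 to 8.69), from 5 UMIs in valve cells. Mgp stayed lower, 2.38-fold (1.70 to 3.45), and Mfap4 had 0 UMIs in valve cells. The E12 and adult valve classes had 17 cells each. Of the adult valve cells 12 also met the coronary rule and 5 the large artery rule. At P2, 205 of the 393 valve cells met the coronary rule and 85 the large artery rule.

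Non-endothelial cells were at least 2-fold above endothelial cells for 6 of 10 members at E12 (Eln, Fbln2, Fbln5, Fbn2, Lox and Mfap4) against 8.01% of genes. At E15 it was 4 of 10 (Fbln5, Fbn2, Lox and Mfap4) against 6.65%, and in the adult 6 of 9 (Eln, Fbn1, Lox, Mfap4, Mfap5 and Mgp) against 12.1%. At P2 the count was 5 of 10 (Emilin1, Fbn1, Fbn2, Mfap4 and Mfap5) against 15% of genes, from 13 non-endothelial cells. The count at least 2-fold lower was 1 at E12 (Mfap5) against 5.27%, 0 at E15 against 2.99%, 2 at P2 (Eln and Fbln2) against 7.33% and 0 in the adult against 13.7%. The non-endothelial side changed its makeup between stages. The largest part at E12, E15 and in the adult matched no marker list, 1660, 1201, 3 and 63 cells over the 4 stages. There were 742, 488, 5 and 27 fibroblast-marker cells and 111, 20, 5 and 23 mural-marker cells. Cushion mesenchyme markers named 198 cells at E12 and 12 at E15. Immune markers named 16, 25, 0 and 4 cells and erythroid markers 37, 5, 0 and 1. The part of that shift in the ratios was not tested.

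Between successive stages, large artery cells had 6 of 10 members at least 2-fold higher at E15 than at E12 (Eln, Fbln5, Lox, Mfap4, Mfap5 and Mgp) against 6.48% of genes, and 0 lower against 5.99%. Among cells with an endothelial UMI the ratio was 5.27 for Eln, 5.54 for Fbln5 and 5.06 for Mgp, but 0.743 for Mfap4 (interval 0.287 to 1.88), and Lox and Mfap5 had 17 and 12 UMIs, too few to compare. From E15 to P2, 2 were higher (Fbln2 and Mfap5) against 20.3% and 2 lower (Fbn2 and Mfap4) against 9.73%. The Mfap5 step, a log2 ratio of 1.39, was -1.35 in the cells without fibroblast or mural UMIs. In cells with an endothelial UMI neither rise reached 2-fold, with Mfap5 at 1.74 (0.942 to 3.64), and Lox was 2.43-fold lower (1.37 to 4.004). From P2 to the adult, 1 was higher (Mfap4, where the P2 level was 5.40 CPM) against 8.5% and 4 lower (Eln, Fbn2, Lox and Mfap5) against 11.7%. The E15 to P2 step of Eln depended on the cells taken: the ratio was 0.898 in the whole class (interval 0.836 to 0.965) and 0.466 in cells with an endothelial UMI (0.430 to 0.505), while classes called from 500 UMIs gave 9198 CPM at E15 and 11946 CPM at P2.

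Coronary cells had 2 of 9 members higher at E15 than at E12 (Mfap4 and Mgp) against 11.6% and 0 lower against 5.66%. The Mfap4 value rests on 2 UMIs at E12, a ratio of 2.52 with an interval that holds no difference (0.645 to 21.7). From E15 to P2, 2 of 10 were higher (Fbln2 and Mfap5) against 18.4% and 2 lower (Fbn2 and Mfap4) against 5.12%. From P2 to the adult, 1 of 10 was higher (Mfap4) against 10.9% and 5 lower (Eln, Emilin1, Fbn2, Lox and Mfap5) against 14.1%. Coronary Eln was 10.1-fold lower in the adult than at P2 (interval 9.24 to 11.1), and 4.92-fold lower (4.33 to 5.60) in coronary cells outside the large artery class, where Fbln5 was 2.55-fold higher (2.31 to 2.81). Endocardial cells had 2 of 10 higher at E15 than at E12 (Mfap5 and Mgp) against 3.87% and 2 lower (Fbln5 and Fbn2) against 5.09%. In endocardial cells with an endothelial UMI, Mfap5, Mgp and Fbn2 stayed beyond 2-fold. Fbln5 was there at 0.699 (0.449 to 1.08), not a 2-fold fall, and Fbln2 was 3.39-fold higher (2.48 to 4.71). From E15 to P2, 3 of 10 were higher (Eln, Fbln2 and Mfap5) against 13.6% and 2 lower (Fbn2 and Mfap4) against 5.22%. With an endothelial UMI Lox was higher as well, 2.42-fold (1.41 to 4.46). From P2 to the adult, 1 of 9 was higher (Mgp) against 11.4% and 4 lower (Eln, Fbln2, Fbn1 and Mfap5) against 10.5%. Eln and Mfap5 were thus lower in the adult than at P2 in all 3 classes, and Fbn2 in large artery and coronary cells.

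**Figure D5:**
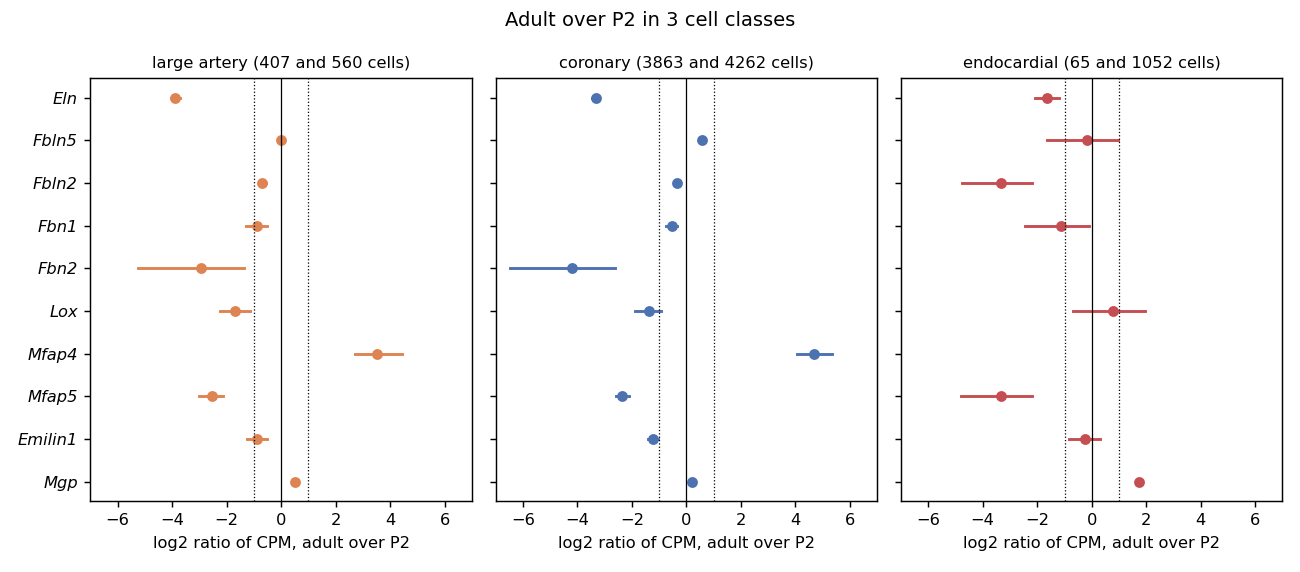
Log2 ratio of CPM, adult over P2, for each member in large artery, coronary and endocardial cells, with 95% exact conditional intervals; dotted lines mark 2-fold in either direction, and members with 0 UMIs at either stage (endocardial Fbn2 and Mfap4) are not drawn. Eln lies 14.7-fold down in large artery and 10.1-fold down in coronary cells (4.92-fold outside the large artery class, not drawn), and Fbln5 lies near 0 in large artery cells.

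Other genes of elastic fibre biology were read from a list of 44. In large artery over other coronary cells at P2, 33 had enough UMIs, 19 were at least 2-fold higher and 1 was lower. Of all genes compared, 9.4% were higher and 4.84% lower. Among microfibril scaffold genes 5 of 6 were higher, led by Ltbp3 at 6.63-fold (interval 5.21 to 8.44), a carrier of latent TGF-beta, by Mfap2, the partner glycoprotein of Mfap5, at 4.38-fold and by Ltbp1 at 2.65-fold. All 4 small proteoglycans and partners were higher, with versican (Vcan) at 11.5-fold, decorin (Dcn) at 8.38-fold and biglycan (Bgn) at 6.27-fold. Among the integrin receptors Itgb5 was at 6.35-fold and Itgb3 at 3.09-fold, while Itgav was at 1.75.

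The cross-linkers Loxl1 and Loxl3, relatives of Lox, were at 3.43-fold and 2.93-fold and Loxl2 at 0.792. Of the elastin-degrading enzymes, cathepsin K (Ctsk) was at 3.89-fold and Mmp2 at 3.85-fold, and cathepsin L (Ctsl) at 1.79. Among the inhibitors of such enzymes Timp2 was at 2.29-fold and Timp1 at 1.91. Of the fibulins outside the 10 members Fbln1 was at 2.203-fold and Efemp2 at 1.55, of the copper and export genes Slc2a10 was at 2.35-fold and Atp7a at 0.953, and Mmrn2, an endothelial relative of EMILIN, was at 1.598. Mmrn1 was the gene that was lower, 5.50-fold (2.75 to 12.9). The counts of higher genes at the other stages were 9 of 15 at E12 against 12.8% of all genes, 16 of 23 at E15 against 12.6% and 12 of 30 in the adult against 8.32%. From P2 to the adult 3 of 31 were higher in large artery cells against 8.5% of all genes, and 11 were lower against 11.7%. These counts are of the whole class, in which most cells at E12 and E15 had no endothelial UMI. A high count was not particular to large artery cells. In endocardial over coronary cells 11 of 25, 15 of 26, 17 of 35 and 14 of 29 were higher over the 4 stages. Of all genes 17.8%, 13.9%, 10.6% and 14.7% were higher there. Lower were 0, 0, 5 and 1, against 5.81%, 6.04%, 11.3% and 12% of all genes. Of the 560 P2 large artery cells 89 also met the endocardial rule and 85 the valve rule.

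Single cells differed in how many members they held. At least 5 of the 10 members were detected in 11.7%, 27.3%, 49.6% and 7.86% of large artery cells over the 4 stages, and in 1.96%, 1.54%, 11.5% and 1.22% of coronary cells. The coronary cells include large artery cells that met both rules, 425 at P2 and 349 in the adult. Depth differs between stages as given above and also between these classes. Its median was 1517, 1274, 4941 and 2259 UMIs in large artery cells and 1924, 1074, 4431 and 1463 in coronary cells. Over the 20 values of 5 classes at 4 stages, on a log2(CPM + 20) scale, Fbln5 was most like Tmem178 (Pearson r = 0.85) and Htra1 (0.82), the latter a marker that chose the large artery class. Then came S100a4 (0.75), Crispld1 (0.75) and Efnb1 (0.74). The genes most like Mgp were Mgst1 (0.86), Apoe (0.84), Bgn (0.84), Ccdc80 (0.82) and Ecm1 (0.81). Those most like Eln were Bpgm (0.84), Ndufa11 (0.84), Ube2j2 (0.80), Pdk3 (0.80) and Edem1 (0.80), and those most like Fbln2 were Zfp358 (0.86), Chmp2b (0.84), Cnot2 (0.83), Mknk1 (0.83) and Cast (0.83). These were ranked among 10262 genes, and the values share libraries and, where classes overlap, cells. Between members, Eln ran with Fbln2 (0.74) and less with Fbln5 (0.49).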

How the data were processed

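Single-cell RNA-seq (10x 3′, v2 chemistry) was deposited as 1 count matrix per stage. Per the labels and the study's methods the authors mapped reads with Cell Ranger 2.2 to mm10 and deposited UMI counts per gene and barcode. The E12 matrix held 737280 barcodes, of which 5732 with at least 452 UMIs were used. Cells were then kept under the study's limits (at E12, E15, P2 and Adult at most 4000, 3000, 12000 and 5000 UMIs, 1500, 1300, 4000 and 2000 genes, and 10, 10, 20 and 20% mitochondrial UMIs) and a doublet score of at most 0.15, which marked 6.04, 6.81, 4.21 and 2.22% of barcodes. The score was computed here from simulated doublets, at an expected doublet share that grows by 0.008 with each 1000 barcodes. Kept cells held 6980170, 5959627, 26361134 and 6743382 UMIs.

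UMIs of a class were summed and divided by its total (CPM). Poisson intervals for sums, conditional binomial intervals for ratios and binomial intervals for shares were exact. No test was run, since each stage is 1 library. Genes needed 20 UMIs in both groups together, a call was 2-fold, and a group at 0 was set to 3 counts. The named genes were all members, and of the list of 44 up to 3 per role with the largest size of log2 ratio in large artery over coronary cells at P2, the 5 genes most like Eln, Fbln5, Fbln2 and Mgp, and class markers. The values of 1 gene of that list are not reported here. Non-endothelial cells took the name of the marker list with most genes detected, at least 3. Members, classes and lists were chosen with earlier results of these data known. The ratio computation was tested on simulated data. Promoters and positions came from RefSeq and GENCODE M21 (GRCm38, the build of mm10). Alternatives are given under the dependence on processing. Computation used Python 3.11.15, NumPy 2.4.6, SciPy 1.17.1 and pandas 2.3.3.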

Additional observations from a re-analysis of the deposited data

Results flagged for a closer look

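Ratios that lay at least 2-fold on opposite sides at different stages, each with an interval that left out no difference, were singled out. The difference between stages was not tested, since each stage is 1 library. The Eln log2 ratio of endocardial over coronary cells was -1.20 at E15 and 2.02 in the adult, where 35 of the 65 endocardial cells also met the large artery rule. Against coronary cells outside the large artery class the E15 level was 0.790 times the coronary one, so the opposite signs at 2-fold do not hold there. The Eln log2 ratio of non-endothelial over endothelial cells was 1.34 at E12, -1.94 at P2 and 1.89 in the adult. For Fbln2 the same ratio was 1.61 at E12 and -1.07 at P2. For Mfap5 it was -1.10 at E12, 1.15 at P2 and 5.01 in the adult. The P2 values rest on 13 non-endothelial cells.

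E12 barcodes under the cutoff, which enter no comparison, held the 10 members together at 2719 CPM, above the level that a count of 0 allows. In the kept E12 cells with blood markers the sum was 325 CPM.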

How the results depend on the processing

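Of 123 counts of members recomputed under 14 alternatives, 109 stayed within 1.5 times the count reported. The number of members at least 2-fold higher in valve than endocardial cells, summed over stages, was 5 and became 8 without cells of several classes, 3 without cells holding fibroblast or mural UMIs, 3 with 50 UMIs per gene and 9 with a fold of 1.5. Endocardial over coronary was 15 and became 23 with 3 marker UMIs, 25 with a fold of 1.5 24 with classes called from 500 drawn UMIs and 24 with coronary cells outside the large artery class. Non-endothelial over endothelial was 21 and became 12 with classes from 500 drawn UMIs. Steps up between stages in large artery cells were 9 and became 5 without cells of several classes, 4 without fibroblast or mural UMIs and 3 among cells with an endothelial UMI. Steps up in coronary cells were 5 and became 10 with 3 marker UMIs and 11 with a fold of 1.5. The alternatives by endothelial UMI, by drawn UMIs and by coronary cells outside the large artery class were chosen after seeing the data. Of the ratios of at least 2-fold, 1432 of 1464 alternative values lay on the same side of 1. The alternatives with a fold of 1.5 and with 50 UMIs per gene change which ratios are called or compared. They leave the ratios themselves as they were, so the agreement under these alternatives was fixed in advance. The alternative with E12 barcodes of at least 1000 UMIs leaves every ratio without E12 cells as it was. CPM without haemoglobin, mitochondrial and ribosomal protein genes multiplies all ratios of a comparison by the same factor. Part of the agreement under these was fixed as well. The log2 ratio of Mfap5 in large artery cells, P2 over E15, turned to -1.35 without fibroblast or mural UMIs, and that of Eln in non-endothelial over endothelial cells at P2 turned to 0.17 with classes from 500 drawn UMIs. The cause was not tested. No paired analysis was possible because each stage is 1 library. Classes of 17 valve cells (E12, adult) and 13 non-endothelial cells (P2) limit what depth can show.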
